A study of Mus musculus with 36 samples.

Results

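Aldo-keto reductases were followed through the replacement of lung macrophages by cells of different origin. The family is represented by 6 named members, Akr1a1, Akr1b3, Akr1b7, Akr1b8, Akr1c12 and Akr1c13, of which 4 had a probe set annotated to 1 gene symbol, out of 19938 genes measured. Akr1b3 and Akr1b7 had no such probe set in the annotation used and were not analysed here. The members were selected on the measured patterns of Akr1b8 and Akr1c13, so the levels of these 2 genes are given as a description and carry no test between groups. The same holds for Akr1c12, whose probe set can share signal with that of Akr1c13. The member tested is Akr1a1, beside 3 relatives outside the set, Akr1b10, Akr1e1 and Akr7a5.

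The arrays covered 9 groups of 4 samples from C57BL/6 mice. The 4 transfer groups were alveolar macrophages that arose in the lungs of Csf2rb-/- recipients, which lack a receptor chain for GM-CSF, after cells were given through the nose to newborns. They came from adult bone marrow monocytes (BM-derived), fetal liver monocytes (FL-derived), yolk sac macrophages (YS-derived) or adult alveolar macrophages (AM-derived), and were recovered by lavage 6 weeks after transfer. The control alveolar macrophages came from wild type mice aged 6 weeks, and an adult set was taken from mice aged 6 to 12 weeks. The 3 other groups were the donor cells before transfer: bone marrow monocytes from mice aged 6 to 12 weeks, fetal liver monocytes from E15.5 embryos and yolk sac macrophages from E12.5 embryos. Donor and control cells were wild type and were sorted by congenic CD45 markers. The labels do not say whether a sample pooled several animals, and the arrays of a group are called biological replicates there.

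Aldo-keto reductases are soluble enzymes that use NADPH to reduce aldehydes and ketones to alcohols. Their substrates include sugars, steroids, prostaglandins, retinal and the reactive aldehydes formed when lipids oxidise. Alveolar macrophages work in an oxygen-rich space and take up surfactant lipid, and several family members elsewhere in the body are induced by NRF2, the transcription factor of the oxidative stress response. Akr1a1 is the general aldehyde reductase, which in the mouse also serves ascorbate synthesis. Akr1b8, first described as a protein induced by fibroblast growth factor, belongs with Akr1b3 (aldose reductase), Akr1b7 and Akr1b10 to the aldose reductase group. Akr1c12 and Akr1c13 belong to the hydroxysteroid dehydrogenase group. In RefSeq's mouse annotation (GRCm38.p6) the aldose reductase group lies in the order Akr1b3, Akr1b8, Akr1b10 and Akr1b7 on chromosome 6. Akr1c13 and Akr1c12 lie in a cluster on chromosome 13 that also holds Akr1e1, and Akr1a1 and Akr7a5 are on chromosome 4.

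The 250 bases before the transcript start that RefSeq's promoter table gives are shown for Akr1b8 and Akr1c13, the members whose levels moved most, and for Akr1c12, whose sequence lies close to that of Akr1c13 (GRCm38.p6, each 5′ to 3′ on the strand of its gene). For Akr1c13 that start lies inside the outer bound of the annotated gene, so the last 19 bases shown belong to the gene as tabulated. Capitals mark GC boxes in Akr1b8, and in the other two sequences every base that differs between Akr1c13 and Akr1c12 in a global alignment, gaps included.
Akr1b8 (chr6:34353896-34354145, plus strand): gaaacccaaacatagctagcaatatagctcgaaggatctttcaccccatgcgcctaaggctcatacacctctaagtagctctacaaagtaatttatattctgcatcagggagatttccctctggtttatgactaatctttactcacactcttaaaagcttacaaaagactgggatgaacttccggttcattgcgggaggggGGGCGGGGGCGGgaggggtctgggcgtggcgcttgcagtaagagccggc
Akr1c13 (chr13:4190937-4191186, plus strand): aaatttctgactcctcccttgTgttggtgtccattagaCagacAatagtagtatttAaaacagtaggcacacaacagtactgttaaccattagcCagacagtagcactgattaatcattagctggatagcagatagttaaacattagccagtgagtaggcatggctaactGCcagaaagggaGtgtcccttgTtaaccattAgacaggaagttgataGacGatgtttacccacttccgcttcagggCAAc
Akr1c12 (chr13:4279400-4279649, minus strand): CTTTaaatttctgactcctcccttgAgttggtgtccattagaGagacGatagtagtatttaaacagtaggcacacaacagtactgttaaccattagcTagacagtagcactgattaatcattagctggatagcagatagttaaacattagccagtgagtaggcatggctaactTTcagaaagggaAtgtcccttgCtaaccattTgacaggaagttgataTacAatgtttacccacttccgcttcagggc
Akr1c13 and Akr1c12 were identical at 235 of 254 aligned positions (92.5%), with 11 substitutions and 8 positions in gaps, whereas Akr1b8 and its neighbour Akr1b10 were identical at 50.5% of aligned positions. Akr1b8 carried the GC box GGGCGG at -49 to -44 and again at -43 to -38 from its start. This box was found in 32.7% of all 32851 promoters of the table and in 4 of 15 promoters of the family.

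The other motifs searched in the same 250 bases were absent from Akr1b8, Akr1c13, Akr1c12 and Akr1a1. They were the core of the antioxidant response element TGACNNNGC (10.2% of all promoters, 1 of 15 in the family), the AP-1 site TGANTCA (6.75%, 0 of 15), the E-box CACGTG (6.02%, 1 of 15) and the nuclear receptor half-site AGGTCA (14.0%, 4 of 15). The CCAAT box CCAAT was found in 33.8% of all promoters and 6 of 15 of the family, the PU.1 site GAGGAAGT in 2.44% and 1 of 15, and the cyclic AMP element TGACGTCA in 1.55% and 0 of 15. These were searched on both strands. The TATA box TATAAA, searched on the strand of the gene, was found in 7.59% and 1 of 15. Akr1b10 and Akr1b7 carried the nuclear receptor half-site and Akr1e1 carried the CCAAT box. Absence says only that these letters are not in this window.

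Levels are log2 values normalised by RMA, which removes a shift shared by most genes of an array. The median of the whole table was 4.62 on that scale, and 12244 genes that exceeded it in at least 4 arrays were tested. Array medians ran from 4.54 to 4.73. Group means of all 8 alveolar macrophage markers lay above the table median in each of the 6 alveolar macrophage groups. So did 5 of them in bone marrow monocytes and 4 in each of the other donor groups. Their linear signal summed to 14304 to 17855 in alveolar macrophage groups and at most 5268 in donors. The 4 measured monocyte markers also lay above the median in all alveolar macrophage groups. They summed to 591 to 6194 there, against 10119 to 13676 in monocytes. The 7 yolk sac macrophage markers summed to 16700 to 18255 in yolk sac macrophages and at most 5165 elsewhere. The summed linear signal of 10 lung epithelial markers was 468 to 821 in the 6 alveolar macrophage groups, against 225 to 299 in the 3 donor groups. Group means of Sftpb, Sftpa1, Krt8 and Cdh1 among them lay above the table median in all 9 groups, the donors included. Part of each sum need therefore not come from epithelium. The 7 neutrophil markers summed to 2557 to 11072 in bone marrow monocytes and 5662 to 10028 in fetal liver monocytes, against 181 to 990 in the alveolar macrophage groups. In yolk sac macrophages the 5 measured erythroid markers summed to 1377 to 2918, against at most 106 elsewhere. In bulk samples, a smaller number of expressing cells and less RNA per cell cannot be told apart.

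Akr1b8 was brightest in the cells that had grown from transferred precursors. Its level was 8.46, 8.30, 8.17 and 8.68 in YS-derived macrophages. It was 8.32, 6.91, 7.91 and 7.91 in BM-derived macrophages and 7.82, 7.77, 6.60 and 7.45 in FL-derived macrophages. All 12 of these values lay above every value of the control and adult alveolar macrophages. The controls aged 6 weeks had 5.38, 4.78, 4.10 and 5.71, and the adult alveolar macrophages had 5.82, 6.20, 5.86 and 5.97. Among the donors, yolk sac macrophages had 6.37, 6.64, 6.71 and 7.04, fetal liver monocytes 3.33, 3.85, 3.56 and 3.76, and bone marrow monocytes 3.53, 3.34, 3.31 and 3.35. Both monocyte populations were therefore under the table median on all of their arrays, while yolk sac macrophages already stood above both sets of untransferred alveolar macrophages.

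**Figure D1:**
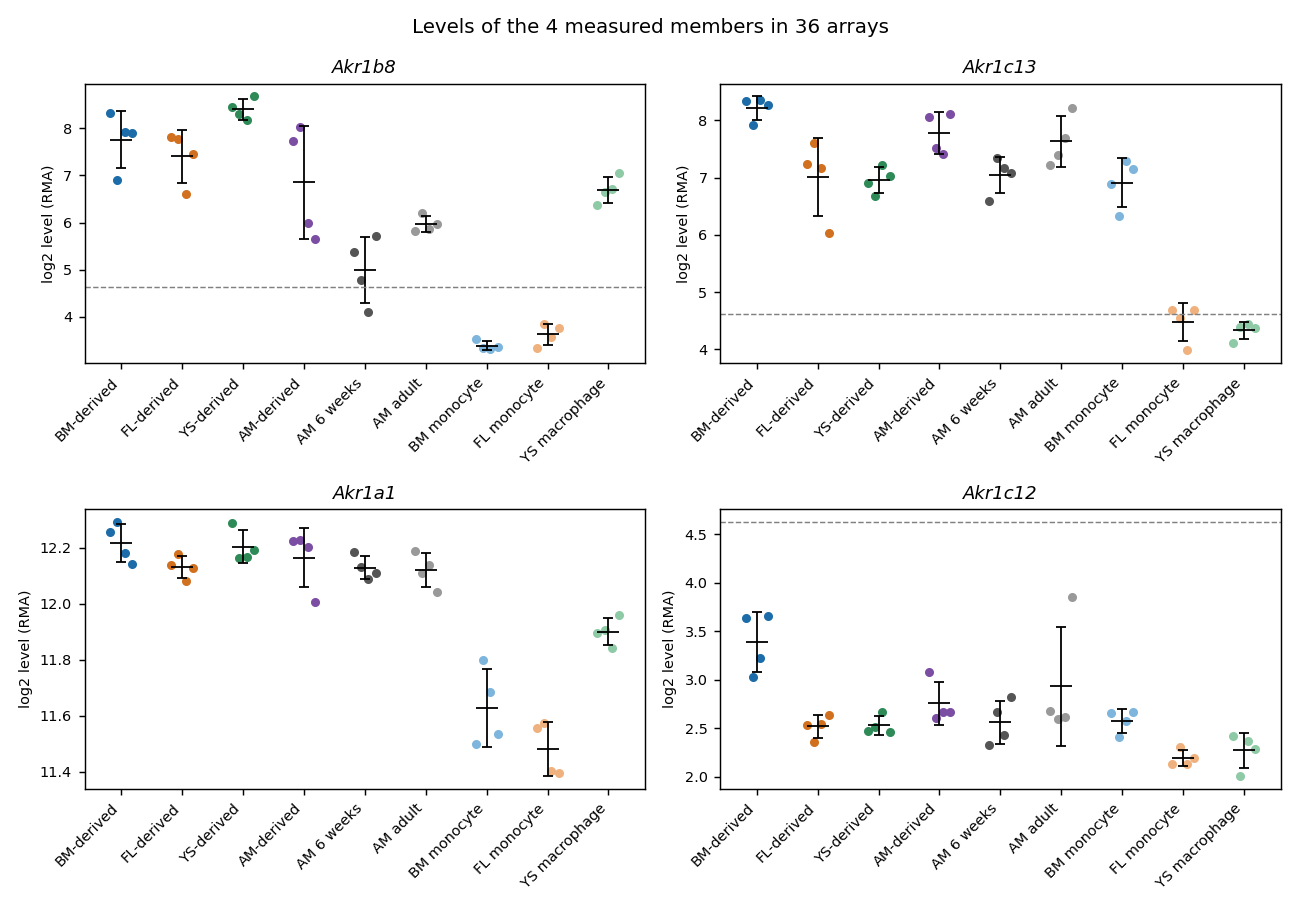
Log2 RMA levels of Akr1b8, Akr1c13, Akr1a1 and Akr1c12 in 9 groups. Points are arrays, bars the mean and SD of 4, and the dashed line is the table median of 4.62 (below the Akr1a1 panel, whose axis starts higher); Akr1b8 is highest in YS-derived macrophages at 8.40, Akr1c13 in BM-derived macrophages at 8.22, and Akr1c12 stays under the line on every array.

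In order of group means, Akr1b8 averaged 8.40 ± 0.22 in YS-derived, 7.76 ± 0.60 in BM-derived, 7.41 ± 0.56 in FL-derived and 6.85 ± 1.20 in AM-derived macrophages, and 6.69 ± 0.28 in yolk sac macrophages (SD, n = 4 each, as for all levels). Each of these overlapped its neighbour in that order. Adult alveolar macrophages (5.96 ± 0.17), controls aged 6 weeks (4.99 ± 0.71) and the 2 monocyte groups (3.62 ± 0.23 in fetal liver and 3.39 ± 0.10 in bone marrow) followed, each step without overlap except that between the monocytes. The span of group means, 5.01, was wide against a mean within-group SD of 0.45.

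The differences over transfer describe the pattern that chose the gene. Akr1b8 differed by 4.38 between BM-derived macrophages and bone marrow monocytes and by 3.78 between FL-derived macrophages and fetal liver monocytes. Because the monocyte means lay under the table median, and the table holds no detection calls, the fold was taken against that median and is a lower limit. It was at least 8.81-fold higher in the bone marrow line and at least 6.89-fold in the fetal liver line. YS-derived macrophages exceeded yolk sac macrophages by 1.71, or 3.28-fold. The share of all genes tested that were called higher in these 3 comparisons was 20.3%, 20.4% and 19.6%, and nothing is read from it for a gene selected on them.

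Against the controls aged 6 weeks, Akr1b8 was higher by 3.41 in YS-derived (10.6-fold), 2.77 in BM-derived (6.82-fold) and 2.42 in FL-derived macrophages (5.34-fold), in each case without overlap. The control mean of 4.99 lay near the table median of 4.62, with 3 of 4 control arrays above it. Levels so near that median cannot be told from background, so these folds are not exact. The 3 comparisons share the same 4 control arrays. The lung epithelial marker sums were 628 to 754 in YS-derived, 592 to 761 in BM-derived and 468 to 740 in FL-derived macrophages, against 506 to 631 in the controls. Leaving out any 1 array of either group kept the YS-derived difference between 3.11 and 3.65, the BM-derived one between 2.47 and 3.06 and the FL-derived one between 2.12 and 2.69. YS-derived macrophages also stood above FL-derived ones by 0.99 without overlap, while the difference of 0.64 from BM-derived macrophages overlapped.

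AM-derived macrophages, the cells that were transferred as alveolar macrophages, were split. Replicates 1 and 2 had 7.73 and 8.03, within the range of the BM- and FL-derived arrays, and replicates 3 and 4 had 5.99 and 5.66, within the range of the untransferred alveolar macrophages. The group therefore overlapped both the controls (difference 1.86) and the adult alveolar macrophages (difference 0.89). With 1 array left out at a time the second of these ran from 0.49 to 1.28, lowest without an array of the upper pair. The lung epithelial markers of the 4 AM-derived arrays summed to 758, 821, 657 and 589, so the arrays with more Akr1b8 also had the higher sums. In BM-derived macrophages the lowest Akr1b8 array had the highest such sum, 761. The part of epithelial RNA in the Akr1b8 levels was not tested.

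Akr1c13 followed another order. It was highest in BM-derived macrophages, with 8.34, 7.91, 8.35 and 8.26. AM-derived macrophages came next, with 8.07, 7.53, 7.41 and 8.11. The 2 groups from fetal donors lay lower. FL-derived macrophages had 7.24, 7.61, 7.16 and 6.03, and YS-derived 6.91, 6.67, 7.21 and 7.02. Among untransferred cells of the lung, adult alveolar macrophages had 7.22, 7.39, 7.70 and 8.22, and the controls aged 6 weeks had 6.60, 7.35, 7.16 and 7.08. BM-derived replicates 1, 3 and 4 lay above every untransferred array, and FL-derived replicate 4 lay under all of them. Bone marrow monocytes already had 6.89, 6.33, 7.29 and 7.16, whereas fetal liver monocytes had 4.69, 4.55, 3.98 and 4.69 and yolk sac macrophages 4.12, 4.39, 4.45 and 4.38. The gene thus separated the adult donors from both fetal ones, with all arrays of the fetal donors near or under the table median.

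The group means of Akr1c13 formed an upper run in which every neighbour overlapped: BM-derived 8.22 ± 0.21, AM-derived 7.78 ± 0.36, adult alveolar macrophages 7.63 ± 0.44, controls 7.05 ± 0.32, FL-derived 7.01 ± 0.68, YS-derived 6.95 ± 0.23 and bone marrow monocytes 6.92 ± 0.43. Fetal liver monocytes (4.48 ± 0.34) and yolk sac macrophages (4.34 ± 0.15) lay apart from that run and overlapped each other. Over transfer the difference was 1.3 from bone marrow monocytes (2.46-fold), 2.53 from fetal liver monocytes (at least 5.23-fold) and 2.62 from yolk sac macrophages (at least 5.03-fold), without overlap in any of them.

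Measured against the controls aged 6 weeks, Akr1c13 was higher by 1.17 in BM-derived macrophages (2.25-fold) and by 0.73 in AM-derived ones (1.66-fold), both without overlap. FL-derived and YS-derived macrophages overlapped the controls, with differences of -0.04 and -0.09. Between origins, FL-derived and YS-derived macrophages lay under BM-derived ones by -1.21 and -1.26 without overlap. Without FL-derived replicate 4, the lowest array, the first of these was -0.88, and the difference of FL-derived macrophages from the controls turned to 0.29. On that array the 4 measured monocyte markers summed to 6194, against 1910 to 2256 on the other 3 FL-derived arrays and 10119 to 11043 in fetal liver monocytes. Its neutrophil and lung epithelial sums, 181 and 468, were the lowest of the group. The part of these in its Akr1c13 level was not tested. AM-derived macrophages overlapped the adult alveolar macrophages they came from, at a difference of 0.14.

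Akr1c12 was dim throughout. Its probe set never exceeded the table median and ran from 2.01 to 3.85, so it did not enter the tests. BM-derived macrophages had its highest mean, with 3.63, 3.03, 3.23 and 3.65, against 2.33, 2.66, 2.43 and 2.82 in the controls, without overlap. That is the same group that was highest for Akr1c13. As the probe sets of these near-identical genes can share signal, whether Akr1c12 itself was expressed cannot be told apart from signal of Akr1c13.

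Akr1b8 and Akr1c13 did not run together. Over the 24 alveolar macrophage arrays the Pearson correlation of their levels was 0.06, and over all 36 arrays 0.35, as a description of arrays that share groups and normalisation. YS-derived macrophages combined the highest Akr1b8 with the lowest Akr1c13 mean of the alveolar macrophage groups, and BM-derived macrophages were high in both.

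**Figure D2:**
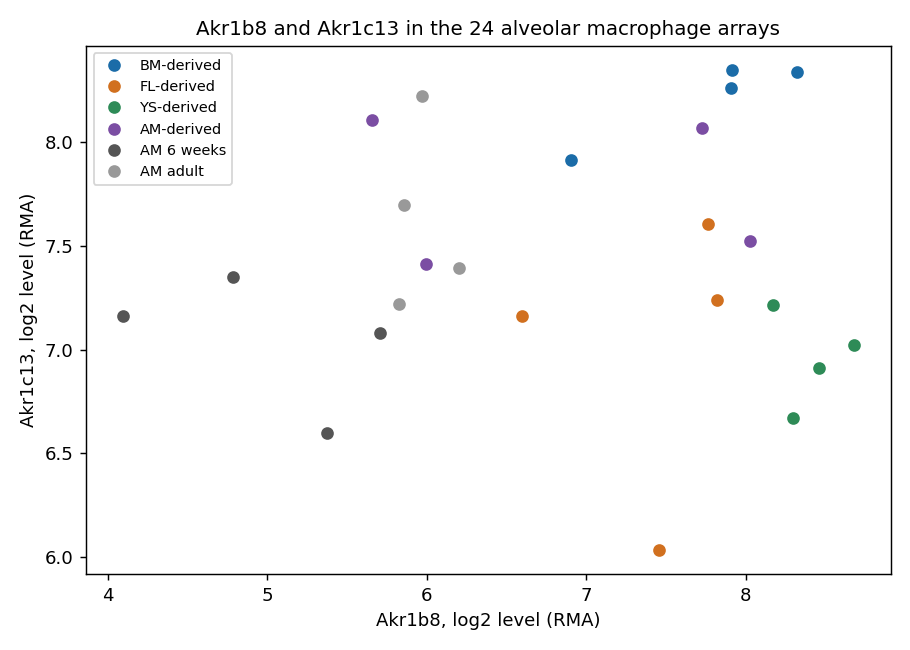
Akr1c13 level (vertical axis) against Akr1b8 level (horizontal axis), both log2 RMA values, in the 24 alveolar macrophage arrays coloured by group. The controls aged 6 weeks lie at the left, at 4.10 to 5.71 for Akr1b8, the YS-derived arrays at the lower right, and the 4 AM-derived arrays spread from 5.66 to 8.03 along the horizontal axis.

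The genes whose levels were most like Akr1b8 over all 36 arrays were Anpep (r = 0.93), which encodes the surface aminopeptidase CD13, Enpp4 (0.91), the growth factor gene Igf1 (0.90), Glmp (0.85) and the lysosomal phosphatase gene Acp2 (0.85). Within the 24 alveolar macrophage arrays they were Lgmn, encoding the lysosomal protease legumain (0.87), the kinase gene Fam20c (0.87), Anpep (0.87), Ptgr1 (0.87) and the carbonic anhydrase gene Car13 (0.86).

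For Akr1c13 the most similar genes over all arrays were AW112010 (0.93), Ms4a8a (0.92), the alveolar macrophage marker Chil3 (0.92), the MHC class II gene H2-Aa (0.92) and Nt5c3 (0.91). Within the alveolar macrophage arrays they were Olfm1 (0.83), Insl6 (0.76), the MHC class II gene H2-Ab1 (0.76), the invariant chain gene Cd74 (0.75) and the sulfotransferase gene Sult2b1 (0.74). These correlations follow group differences and have no p-value.

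Akr1a1 varied least between groups of the 4 measured members, with group means that spanned 0.74. It averaged 12.22 ± 0.07 in BM-derived, 12.13 ± 0.04 in FL-derived, 12.20 ± 0.06 in YS-derived and 12.16 ± 0.11 in AM-derived macrophages, 12.13 ± 0.04 in the controls and 12.12 ± 0.06 in adult alveolar macrophages. These 6 groups overlapped in their order. The donors lay under them, at 11.63 ± 0.14 in bone marrow monocytes, 11.48 ± 0.10 in fetal liver monocytes and 11.90 ± 0.05 in yolk sac macrophages.

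In limma's test across all genes, Akr1a1 was higher by 0.59 ± 0.08 (SE) in BM-derived macrophages than in bone marrow monocytes (adjusted p = 3.6e-07) and by 0.65 in FL-derived macrophages than in fetal liver monocytes (adjusted p = 4.8e-08). It was higher by 0.30 in YS-derived than in yolk sac macrophages (adjusted p = 0.0027). All 4 arrays of each descendant group lay above all 4 of its donor group. The change in the yolk sac line was smaller than in the fetal liver line by -0.35 (adjusted p of the interaction = 0.026), while the difference of -0.29 from the bone marrow line missed the threshold (adjusted p = 0.058). Genes called in those interaction tests made up 22.9% and 30.6% of all genes tested. The lines from fetal liver and bone marrow differed by 0.06 (adjusted p = 0.82, with 9.94% of genes called). The yolk sac change was 0.14 (adjusted p = 0.18) after a second quantile normalisation.

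Once resident in the lung, Akr1a1 was not called in any comparison between alveolar macrophage groups. Against the controls the differences were 0.09 (95% interval -0.08 to 0.26) for BM-derived, 0.003 (-0.16 to 0.17) for FL-derived, 0.07 (-0.09 to 0.24) for YS-derived and 0.04 (-0.13 to 0.20) for AM-derived macrophages, with adjusted p of 0.89, 0.999, 0.91 and 0.94 by limma. Genes called in either direction there made up 1.31%, 1.05%, 1.72% and 1.07% of those tested. AM-derived macrophages differed from adult alveolar macrophages by 0.05 (-0.12 to 0.21), where 0.702% of genes were called. Between descendants the differences were -0.09 for FL-derived and -0.01 for YS-derived against BM-derived, and 0.07 for YS-derived against FL-derived, with 0.417%, 0.833% and 0.27% of genes called.

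Of the 11 other family genes measured, Akr1b10, Akr1e1 and Akr7a5 exceeded the table median often enough to be tested. The other 8, Akr1c6, Akr1c14, Akr1c18, Akr1c19, Akr1c20, Akr1c21, Akr1cl and Akr1d1, had group means of 2.39 to 3.19 and no array above the median. They include the steroid enzymes 20α-hydroxysteroid dehydrogenase (Akr1c18) and 5β-reductase (Akr1d1). With Akr1a1, 4 of 4 tested family genes were called higher in BM-derived and in FL-derived macrophages than in their monocytes, against 20.3% and 20.4% of all genes, and 1 of 4 was called higher in YS-derived than in yolk sac macrophages, against 19.6%. None was called lower, where 16.1%, 18.0% and 23.2% of all genes were. The calls of Akr7a5 in the bone marrow line and Akr1e1 in the fetal liver line were lost under several alternatives. That of Akr1a1 in the yolk sac line was lost after a second quantile normalisation. All 4 genes lay above the table median on all 36 arrays.

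**Figure D3:**
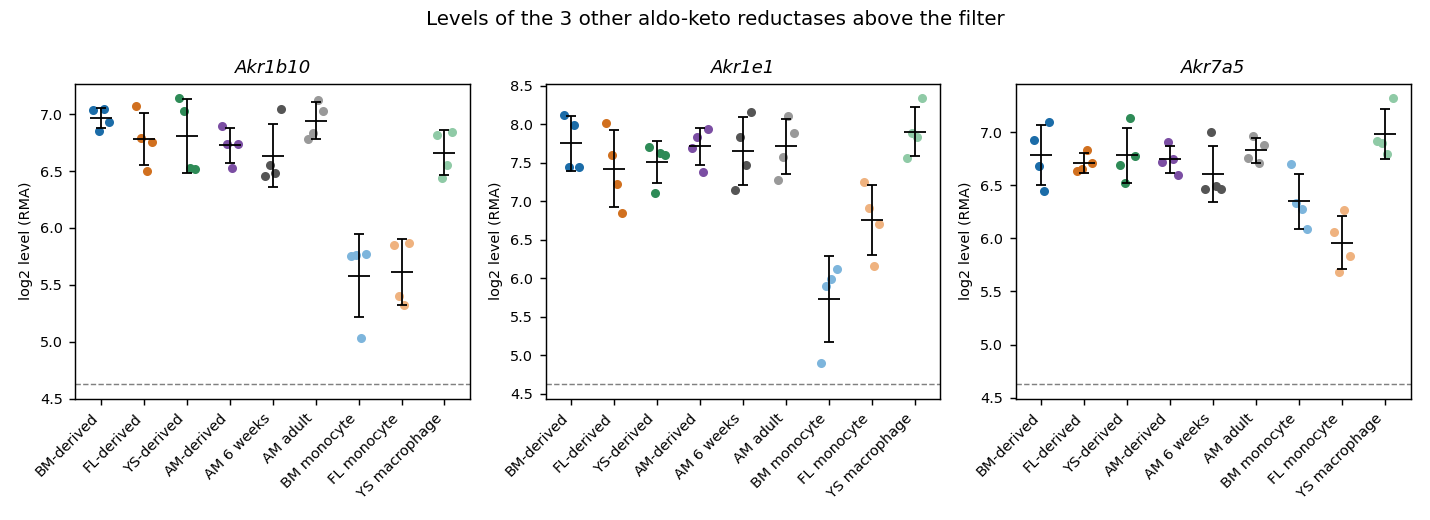
Log2 RMA levels of Akr1b10, Akr1e1 and Akr7a5 in 9 groups, with points for arrays, bars for mean and SD of 4, and the table median dashed. The monocytes are the low groups in each panel, at 5.58 and 5.61 for Akr1b10, while yolk sac macrophages at 6.66 stand level with alveolar macrophages.

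Akr1b10, the neighbour of Akr1b8, had 7.03, 6.85, 7.04 and 6.93 in BM-derived macrophages, against 5.75, 5.77, 5.03 and 5.77 in bone marrow monocytes. It was higher by 1.38 ± 0.17 (SE; limma adjusted p = 4.8e-08). The FL-derived arrays, at 7.07, 6.79, 6.50 and 6.76, were likewise all above the fetal liver monocytes, at 5.85, 5.40, 5.32 and 5.87 (1.17, adjusted p = 1.0e-06). YS-derived macrophages had 7.14, 7.03, 6.53 and 6.52, and overlapped yolk sac macrophages at 6.81, 6.44, 6.55 and 6.85 (0.14, 95% interval -0.21 to 0.49, adjusted p = 0.54). The yolk sac change was smaller than the bone marrow one by -1.24 (adjusted p = 0.00015) and than the fetal liver one by -1.03 (adjusted p = 0.0017).

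Akr1e1, a reductase of 1,5-anhydrofructose, had 8.12, 7.45, 7.99 and 7.44 in BM-derived macrophages, against 4.90, 5.90, 5.99 and 6.12 in bone marrow monocytes. That difference was 2.02 ± 0.27 (SE; limma adjusted p = 1.6e-07). FL-derived macrophages, at 8.02, 7.60, 7.23 and 6.85, overlapped fetal liver monocytes, at 7.26, 6.91, 6.16 and 6.70. They were called higher by 0.67 at an adjusted p of 0.047, a call lost under several alternatives, as when fetal liver monocyte replicate 3 was left out (0.47, adjusted p = 0.21). YS-derived macrophages averaged 7.51 ± 0.27 and yolk sac macrophages 7.91 ± 0.32 (-0.40, adjusted p = 0.25). The yolk sac change differed from the bone marrow change by -2.42 (adjusted p = 5.3e-06).

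Akr7a5, a reductase of aflatoxin dialdehyde and succinic semialdehyde, averaged 6.79 ± 0.28 in BM-derived macrophages and 6.35 ± 0.26 in bone marrow monocytes (0.44, limma adjusted p = 0.027). These 2 groups overlapped. Without BM-derived replicate 4 this difference was 0.33 and the adjusted p was 0.12. The call was also lost without BM-derived replicate 1 or bone marrow monocyte replicate 3 or 4. A second quantile normalisation and a fit of the 2 groups alone lost it too. Akr7a5 averaged 6.71 ± 0.09 in FL-derived macrophages and 5.96 ± 0.25 in fetal liver monocytes (0.75, adjusted p = 0.00019), and 6.78 ± 0.26 in YS-derived and 6.98 ± 0.23 in yolk sac macrophages (-0.20, adjusted p = 0.32). None of Akr1b10, Akr1e1 and Akr7a5 was called between any pair of the alveolar macrophage groups compared.

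**Figure D4:**
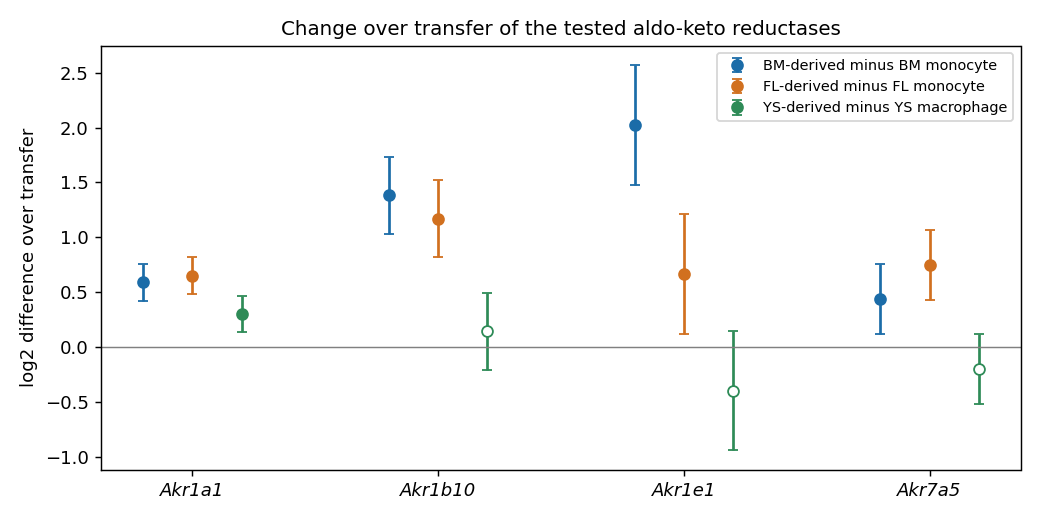
Log2 difference of descendants minus donors for the 4 tested family genes, with 95% intervals of the limma fit; filled points were called at adjusted p under 0.05 and open points were not. Bone marrow and fetal liver lines lie above 0 for every gene, from 0.44 to 2.02, and the yolk sac line lies between -0.40 and 0.30.

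The donors already differed before transfer. Yolk sac macrophages exceeded bone marrow monocytes in 4 of 4 tested family genes, by 0.27 for Akr1a1 (limma adjusted p = 0.0072), 1.08 for Akr1b10, 2.18 for Akr1e1 and 0.63 for Akr7a5, in a comparison where 42.2% of all genes were called. With these 2 groups fitted alone the Akr1a1 difference had an adjusted p of 0.090. They also exceeded fetal liver monocytes in 4 of 4, by 0.42, 1.05, 1.15 and 1.02 in the same gene order, where 33.1% of genes were called. Fetal liver monocytes exceeded bone marrow monocytes in 1 of the 4, Akr1e1, by 1.03 (adjusted p = 0.0051), where 19.5% of genes were called. As a description, Akr1b8 was at least 4.19-fold higher in yolk sac macrophages than in either monocyte population, against the table median, whereas Akr1c13 in yolk sac macrophages was lower by at least 4.90-fold against bone marrow monocytes. The erythroid and neutrophil marker sums given above differ between the same donors. So does the sum of 6 hepatocyte and yolk sac endoderm markers, at 350 to 574 in yolk sac macrophages, 154 to 214 in fetal liver monocytes and 153 to 209 in bone marrow monocytes. The part of these in the differences was not tested.

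The list of NRF2 pathway genes, 24 of 26 tested, was mostly higher after transfer. In BM-derived macrophages 14 were called higher and 3 lower than in bone marrow monocytes, where 20.3% of all genes were called higher and 16.1% lower. The list median was 0.67, against -0.02 over all genes tested. In FL-derived macrophages 16 were called higher than in fetal liver monocytes and 1 lower, against 20.4% and 18.0% of all genes (median 0.67, all genes -0.02). In YS-derived macrophages 13 were called higher and 4 lower than in yolk sac macrophages, against 19.6% and 23.2% of all genes (median 0.43, all genes 0.00). Slc7a11, the cystine importer that feeds glutathione synthesis, was higher in all 3 lines. It was higher by 3.40 in the fetal liver line. In the other lines the donor mean lay under the table median, and Slc7a11 was at least 7.64-fold higher in the bone marrow line and at least 13.3-fold in the yolk sac line against that median. Hmox1, haem oxygenase, was higher by 2.31 and 2.61 in the monocyte lines. Gstm1, a glutathione transferase, was higher by 4.28 in the yolk sac line, and Gsr, glutathione reductase, by 2.82. Gsr was the gene called lower in the fetal liver line, by -0.32, and was not called in the bone marrow line (-0.26). In the bone marrow line Mafg, Bach1 and Keap1, partners and repressors of NRF2, were those called lower, by -0.48, -0.78 and -0.37.

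Set against the controls aged 6 weeks, 1 NRF2 pathway gene was called in 1 of 4 transfer groups, where 1.05% to 1.72% of all genes were called. Ephx1, the microsomal epoxide hydrolase, was higher by 1.41 in BM-derived macrophages (limma adjusted p = 0.022), with 5.54, 5.61, 7.76 and 5.99 there against 4.49, 5.67, 4.43 and 4.68 in the controls. The groups overlap and replicate 3 is far above the rest. The call was lost without that replicate, without control replicate 1, 3 or 4, and with the 2 groups fitted alone. List medians were 0.06, 0.08, 0.11 and 0.13 in BM-, FL-, YS- and AM-derived macrophages.

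Other enzymes of aldehyde and carbonyl clearance changed in both directions. Of 17 tested, 6 were called higher and 4 lower in the bone marrow line (median 0.38), against 20.3% and 16.1% of all genes. In the fetal liver line 10 and 2 were called (0.50), against 20.4% and 18.0%, and in the yolk sac line 6 and 5 (0.02), against 19.6% and 23.2%. The carbonyl reductase Cbr1 was higher by 1.68 and 1.65 in the monocyte lines, and Cbr3 was at least 5.92-fold higher in the fetal liver line, whose donor mean lay under the table median. The mitochondrial aldehyde dehydrogenase Aldh2 was lower by -1.39 in BM-derived macrophages, and Aldh7a1 by -2.58 in YS-derived ones. None of the 17 was called by limma in any of the 4 transfer groups against the controls, where 1.05% to 1.72% of all genes were.

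The polyol pathway and NADPH supply list had 11 genes tested. In the bone marrow line 0 were called higher and 3 lower (median -0.08), against 20.3% and 16.1% of all genes. In the fetal liver line the counts were 1 and 4 (-0.18), against 20.4% and 18.0%, and in the yolk sac line 6 and 4 (0.55), against 19.6% and 23.2%. Transaldolase (Taldo1) and the cytosolic isocitrate dehydrogenase (Idh1) were higher by 1.93 and 1.88 in YS-derived than in yolk sac macrophages, and the mitochondrial Idh2 was lower by -2.33. Ketohexokinase (Khk) was lower in all 3 lines, by -1.43, -0.97 and -0.66. The one call against the controls, where 1.05% to 1.72% of all genes were called, was Idh2 in AM-derived macrophages, lower by -0.77 (limma adjusted p = 0.018), a call lost without AM-derived replicate 1 or 4 or control replicate 2, 3 or 4. Of 9 retinoid genes tested, 2, 2 and 1 were called higher and 1, 1 and 2 lower in the bone marrow, fetal liver and yolk sac lines, beside the same shares of all genes. Dhrs3, which reduces retinal to retinol, was higher by 2.81, 2.80 and 1.53.

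The prostanoid list, of which 13 of 16 genes were tested, also held calls between transferred cells and the controls. There 1 gene was called higher and 1 lower in BM-derived and in FL-derived macrophages, 2 and 1 in YS-derived and 1 and 2 in AM-derived ones. The shares of all genes called in either direction were 1.31%, 1.05%, 1.72% and 1.07%. Against adult alveolar macrophages 0 were called higher and 2 lower in AM-derived ones, where 0.702% of all genes were called. Over transfer 5 genes were called higher and 2 lower in the bone marrow line, 4 and 3 in the fetal liver line and 3 and 5 in the yolk sac line, with medians of 0.16, -0.03 and -0.20. The shares of all genes called were 20.3%, 20.4% and 19.6% higher and 16.1%, 18.0% and 23.2% lower. The descendants' means of Hpgd, the dehydrogenase that inactivates prostaglandins, lay under the table median. Against that median it was at least 28.5-fold lower in the bone marrow line, 8.69-fold in the fetal liver line and 39.7-fold in the yolk sac line. Tbxas1, thromboxane synthase, was higher by 2.08 in the bone marrow and 2.10 in the yolk sac line, and at least 20.6-fold higher in the fetal liver line, whose donor mean lay under the median. Ptgs2, the inducible cyclooxygenase, was at least 7.19-fold lower in the fetal liver line and at least 16.7-fold lower in the yolk sac line, where the descendants again lay under the median.

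Ptgr1, the prostaglandin reductase that also oxidises leukotriene B4 and was among the genes most like Akr1b8, had 9.62, 9.12, 9.39 and 9.81 in BM-derived macrophages. FL-derived macrophages had 9.65, 9.44, 9.31 and 8.95, YS-derived 9.57, 9.27, 9.39 and 9.35 and AM-derived 9.24, 9.37, 8.86 and 9.12. The controls had 8.36, 8.70, 8.39 and 8.49, and no array of a transfer group fell among them. Untransferred adult alveolar macrophages, at 8.76 to 8.79, also lay above every control array. The differences from the controls were 1.00, 0.85, 0.91 and 0.66 (limma adjusted p = 1.0e-05, 0.00017, 2.9e-05 and 0.0049). The last of these had an adjusted p of 0.062 with the 2 groups fitted alone. AM-derived macrophages exceeded the adult alveolar macrophages by 0.38, which missed the threshold (adjusted p = 0.29). Unlike Akr1b8, Ptgr1 was also high in monocytes, at 9.33 ± 0.02 in bone marrow and 9.45 ± 0.10 in fetal liver.

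Hpgd was lower in all 4 transfer groups than in the controls. It had 3.65 to 4.10 in BM-derived, 4.05 to 4.16 in FL-derived, 3.86 to 4.37 in YS-derived and 3.70 to 4.01 in AM-derived macrophages, all under the table median, against 5.15 to 5.60 in the controls. Against that median Hpgd was at least 1.74-fold lower in each of the 4 groups (limma adjusted p = 1.9e-05, 0.00024, 9.4e-05 and 2.5e-05). AM-derived macrophages were also lower than the adult alveolar macrophages they came from, by at least 1.68-fold (adjusted p = 5.9e-05), a call lost with the 2 groups fitted alone (adjusted p = 0.056). The 4 comparisons share the control arrays and are not independent of each other.

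**Figure D5:**
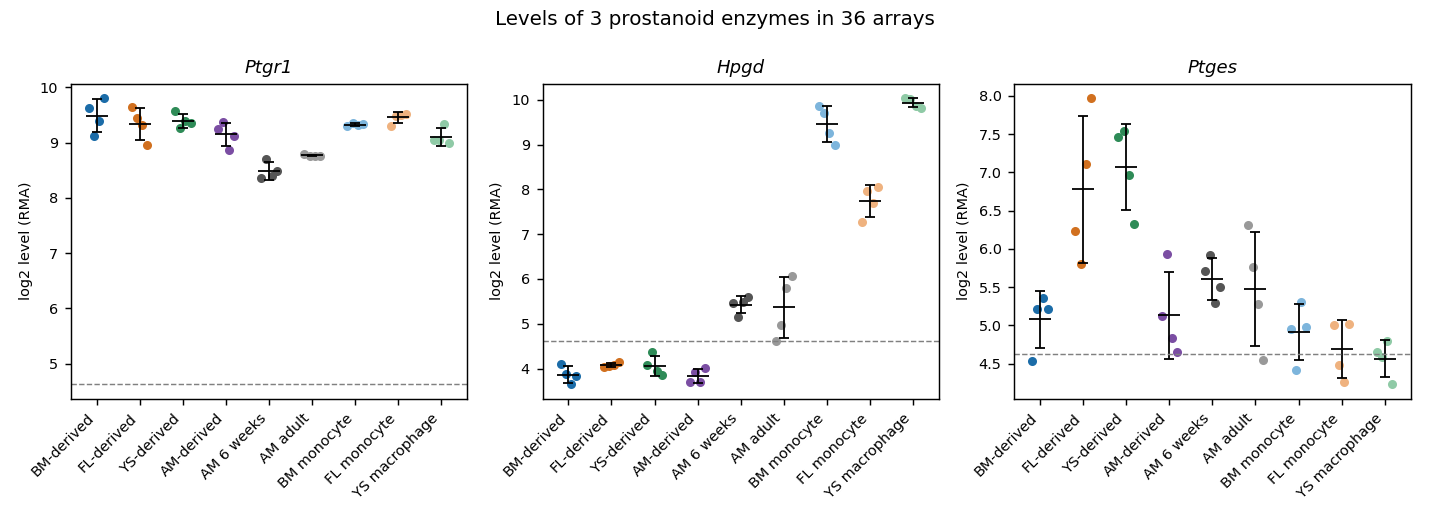
Log2 RMA levels of Ptgr1, Hpgd and Ptges in 9 groups, with points for arrays, bars for mean and SD of 4, and the table median of 4.62 dashed. The 4 transfer groups lie above the controls aged 6 weeks for Ptgr1 and below them for Hpgd, and for Ptges the FL- and YS-derived groups are the highest, at 6.78 and 7.07.

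Ptges, the inducible prostaglandin E synthase, differed by origin. It averaged 7.07 ± 0.56 in YS-derived and 6.78 ± 0.96 in FL-derived macrophages, and 5.08 ± 0.37 in BM-derived ones. YS-derived and FL-derived macrophages were higher than BM-derived macrophages by 2.00 and 1.70 (limma adjusted p = 0.0011 and 0.015). In these comparisons 0.833% and 0.417% of all genes were called. The call for FL-derived macrophages was lost without BM-derived replicate 1, without FL-derived replicate 3 or 4, and with the 2 groups fitted alone. YS-derived macrophages were higher than the controls by 1.47 (adjusted p = 0.018), a call lost without YS-derived replicate 1 or 2 or control replicate 3 or 4. The difference of 1.18 for FL-derived macrophages missed the threshold (adjusted p = 0.16). Prxl2b, a synthase of prostaglandin F and its amides, was lower in AM-derived macrophages than in the controls, by -0.82 (adjusted p = 0.024), and than in adult alveolar macrophages, by -0.92 (adjusted p = 0.010). The first call was lost without AM-derived replicate 1, 2 or 3 or control replicate 2 or 4, and with the 2 groups fitted alone. The second was lost without AM-derived replicate 2 or adult replicate 1, and with the 2 groups fitted alone.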

How the data were processed

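RNA of sorted mouse cells was hybridised to 36 Affymetrix Mouse Gene 1.0 ST arrays in 9 groups of 4, set by the sample titles. The table deposited by the authors gives 35556 probe sets on the log2 scale. The submitters' processing notes name RMA without a version. It sets the probe intensities of all arrays, not the probe set values, to a common distribution and compresses differences of dim genes. Values were used as deposited, and the number of arrays limits the precision. Of the probe sets, 21789 had 1 gene symbol, 1621 several and 12146 no entry in the platform annotation, and only the first kind was kept. Entrez identifiers gave current symbols for 21698 of them in RefSeq's GRCm38.p6 annotation. A gene with several probe sets was represented by the one with the highest mean. Coordinates of probe sets were not used.

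A model with 1 mean per group was fitted with limma 3.58.1 in R 4.3.3 (lmFit, eBayes with a constant prior, two-sided) to 12244 genes above the table median, 4.62, in at least 4 arrays. Benjamini-Hochberg adjustment ran over these genes within each contrast, and genes were called under 0.05. The fit was tested on simulated data. The labels call the arrays of a group biological replicates and do not say whether animals were pooled. The p-values measure the spread between these samples.

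The members and gene lists were chosen with earlier results of these data known, and no list is independent evidence. The text names every member and other measured family gene, up to 4 called genes with the lowest adjusted p per list and comparison, and the 5 genes most like Akr1b8 and Akr1c13, leaving out predicted and small RNA genes. Values of a gene so named may also be given in another comparison. Alternatives were normalisation, probe set choice, filter, prior, array weights, arrays in the fit, the replicate number as a block and leaving out each array. Promoters were aligned with Biopython 1.88.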

Additional observations from a re-analysis of the deposited data

Results flagged for a closer look

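In 7 of 63 combinations of a family gene and a group, 1 array lay far from the other 3 of its group by Dixon's test, where chance gives about 1 in 20. Akr1a1 was low in AM-derived replicate 4 (12.01, others averaging 12.22). Akr1c12 was high in AM-derived replicate 1 (3.08, others 2.65) and in adult alveolar macrophage replicate 4 (3.85, others 2.63), both under the table median. Among the relatives, Akr1b10 was high in replicate 4 of the controls aged 6 weeks (7.04, others 6.50) and low in bone marrow monocyte replicate 3 (5.03, others 5.76). Akr1e1 was low in YS-derived replicate 2 (7.11, others 7.64), and Akr7a5 was high in replicate 2 of the controls (7.005, others 6.47).

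The change over transfer differed between origins in 8 of 12 tests of a family gene (limma interaction terms, adjusted p under 0.05). Of all genes, 22.9% were called between the yolk sac and fetal liver lines, 30.6% between the yolk sac and bone marrow lines and 9.94% between the fetal liver and bone marrow lines. In the yolk sac line it was smaller than in the fetal liver line for Akr1a1 (-0.35), Akr1b10 (-1.03), Akr1e1 (-1.07) and Akr7a5 (-0.95). It was smaller than in the bone marrow line for Akr1b10 (-1.24), Akr1e1 (-2.42) and Akr7a5 (-0.64). For Akr1e1 the fetal liver line also changed less than the bone marrow line (-1.35). In each of these genes yolk sac macrophages started from a higher level than either monocyte. None of the genes was called between BM-, FL- and YS-derived macrophages. Each interaction term is the difference between 2 descendant groups minus that between their donors. With the descendants alike, these calls largely restate the donor differences given above and are not a separate result. The interaction terms of a gene share arrays and determine one another, so the 12 tests are not independent.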

How the results depend on the processing

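No called difference of a family gene changed sign under the alternatives run, nor did any of the 25 differences of Akr1b8, Akr1c12 and Akr1c13 whose groups did not overlap. Where groups do not overlap, leaving out an array cannot change the sign, so most alternative values of these 25 could not have changed it. Of the tested differences that were not called, 12 of 42 changed sign under at least 1 alternative, and of the described ones with overlapping groups 7 of 17, none of which exceeded 0.18 in size with all arrays. Of 262 alternative values for Akr1a1, 256 kept their side of the threshold. A second quantile normalisation left the YS-derived over yolk sac difference at 0.14 (adjusted p = 0.18), and the fit of the groups compared alone left the yolk sac over bone marrow difference at 0.27 (adjusted p = 0.090). The contrast of yolk sac and bone marrow changes passed the threshold at -0.42 after quantile normalisation, -0.35 with a common median, -0.29 with an intensity trend and -0.30 with array weights. The 462 alternative differences of Akr1b8, Akr1c12 and Akr1c13 moved by less than the replicate SD, as did 251 of 252 levels, the exception being Akr1a1 in yolk sac macrophages (12.03 after quantile normalisation). Leaving out 1 of 4 arrays cannot move a group mean by its SD, and each of these genes had 1 probe set. Most of these values could therefore not have moved that far, and the counts are no evidence of stability. For Akr1b10, Akr1e1 and Akr7a5, 764 of 786 values kept their side, and for Ptgr1 and Hpgd 135 of 136. The Akr1e1 contrast of yolk sac and fetal liver changes had an adjusted p of 0.053 to 0.062 under 3 of these (second quantile normalisation, common median, no filter), and the Akr7a5 contrast of yolk sac and bone marrow changes one of 0.18 after quantile normalisation. Fitted alone, 45 genes were called in AM-derived over adult alveolar macrophages (86 with all arrays), 74 in FL-derived over controls (128), 13 in FL-derived over BM-derived (51), 63 in YS-derived over BM-derived (102) and 9 in YS-derived over FL-derived macrophages (33). The cause was not tested, beyond the smaller number of arrays. The replicate numbers did not pair the arrays: same-numbered arrays deviated together with a mean r of 0.00, and 10 of 36 were closest to their own number. With the number as a block, Akr1a1 kept its calls (0.59, adjusted p = 4.5e-07, for BM-derived over bone marrow monocytes), and Akr1e1 in FL-derived over fetal liver monocytes had an adjusted p of 0.057. RMA holds no detection calls, so levels near the median of 4.62 cannot be told from background.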
